A study of Mus musculus and Rattus norvegicus with 33 samples.

Results

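RNA sequencing was used to describe the tibialis anterior, the shin muscle that dorsiflexes the ankle, of rats whose left leg was trained every day for 30 days by electrical stimulation of its nerve. Legs were chosen by their labels, and 2 of the 16 rat legs, among 33 legs in the whole series, had this label. They are called TAL292 and TAL294 here, TAL for a left leg and TAR for a right leg, followed by the number of the rat. Both were labelled as taken 1 hour after exercise, so 30 days of training and the last bout cannot be told apart. Left legs of other rats were trained every 3 days for 30 days and taken 1 hour after exercise (n = 3), or had sham surgery (n = 3). The sham label does not say whether a device was implanted. The contralateral controls were the 8 right legs of these same 8 rats (n = 8), with no time of sampling given for them or for the sham legs. All animals were wild type, with strain, sex and age not given. Stimulators were implanted and set over Bluetooth, and total RNA was taken from the muscle. Against contralateral legs, training, surgery and side cannot be told apart, and the sham legs carry surgery and side. A muscle holds fibres, blood vessels, connective tissue and immune cells, and in such bulk RNA fewer cells of a type and less RNA per cell cannot be told apart.

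As background, muscle fibres differ in the myosin heavy chain that drives contraction. Myh4 encodes the chain of the fastest, glycolytic fibres (type IIb), Myh1 that of IIx fibres, Myh2 that of IIa fibres and Myh7 that of slow fibres, and long nerve activity is known to shift fibres along this order. Within about an hour of contraction, fibres also switch on immediate early genes, whose transcription needs no new protein, and genes that respond to load, heat and energy use. PGC-1alpha, encoded by Ppargc1a, is the coactivator best known for driving mitochondrial genes after exercise.

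Estimated depth was 11.6 M reads in TAL292, 19.8 M in TAL294, and 4.9 to 28.0 M over all 16 rat libraries, with the lowest value in contralateral leg TAR299. The number of legs limits the precision, and the p-values take every leg as independent, although left and right legs came from the same rats. The skeletal muscle label was checked against 10 identity genes, which summed to 116000 CPM (the deposited read values scaled to library size) in TAL292 and 100000 CPM in TAL294, against 109000 to 129000 CPM in the contralateral legs, with 1 gene called higher and 2 lower. Acta1, skeletal muscle actin, had 43500 and 36500 CPM in TAL292 and TAL294, against 28000 to 48000 CPM in the contralateral legs, and Ckm, muscle creatine kinase, had 21400 and 21800 CPM, against 28400 to 34300 CPM.

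Against the contralateral legs, the daily legs showed activity-induced transcription factors, load-response genes and chaperones far above the control level, a near loss of Myh4, and lower levels of other fast fibre genes. Of 10356 genes tested, 851 (8.22 percent) were called, meaning an adjusted p under 0.05, with 552 (5.33 percent) higher and the rest (2.89 percent) lower in daily legs. Thus 64.9 percent of the calls were higher, and 56.2 percent with median-of-ratios scaling. By fitted change, 315 of the higher and 80 of the lower genes moved at least 2-fold, and 27 rose at least 8-fold. Both daily legs lay above all 8 contralateral legs for 522 of the 552 higher genes and below all 8 for 274 of the lower genes. Such separation is common among all genes, with 13.3 percent of the tested genes above and 7.02 percent below. The median change over all genes was 0.06 on the log2 scale.

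Each daily leg could be set against the right leg of its own rat. Of the 552 genes called higher, 551 were higher than in the own right leg in both rats, and every gene called lower was lower in both. These legs also took part in the fit that chose the genes, so this direction is largely set by the choice; over all 10356 genes, 36.7 percent were higher and 31.7 percent lower in both. The change was unequal: it was larger for TAL292 than for TAL294 for 497 of the higher genes and 236 of the lower ones. The median own-leg change of the higher genes was 1.32 (log2) in TAL292 and 0.69 in TAL294, and that of the lower genes was -0.81 in TAL292 and -0.61 in TAL294. The number of calls rests on TAL292: 122 genes were called without it and 521 without TAL294, while 1326 were called without TAR299, the shallowest library. With the animal as a replicate block, which pairs each leg with the other leg of its rat, 284 genes were called.

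**Figure D1:**
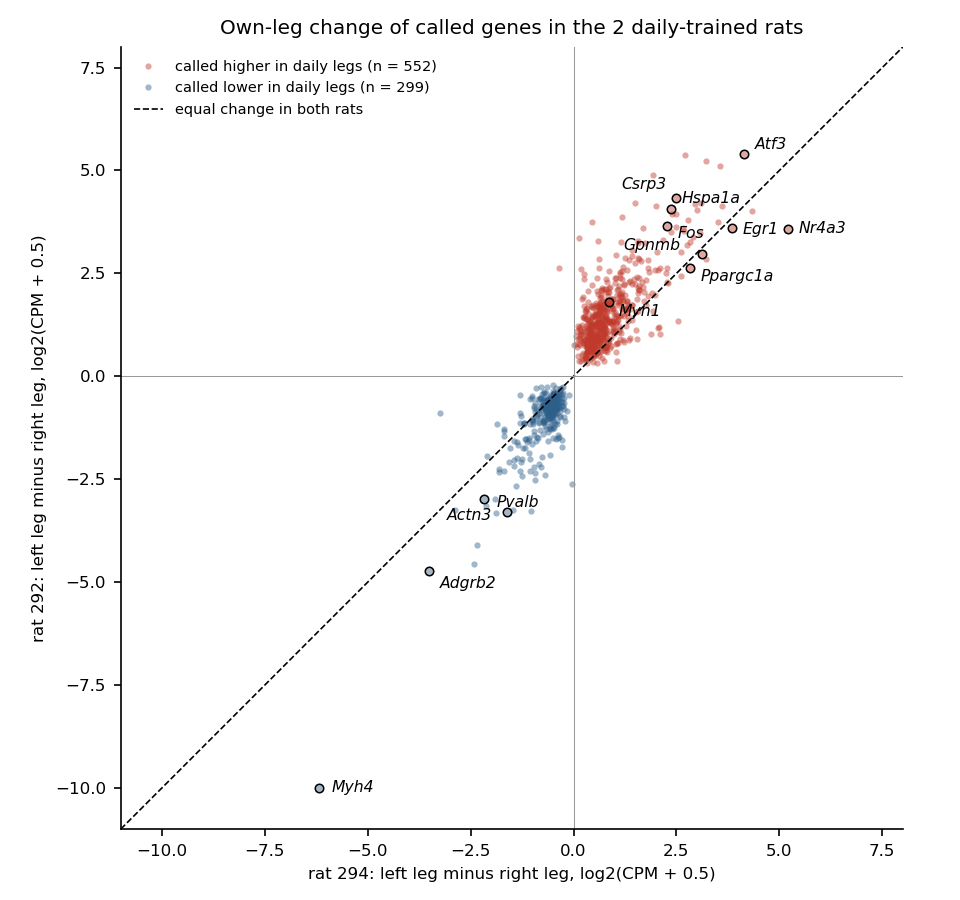
Own-leg change, left minus right leg on the log2(CPM + 0.5) scale, of the 851 called genes in TAL292 (vertical axis) and TAL294 (horizontal axis), with genes called higher in red, genes called lower in blue, a dashed line of equal change and selected genes named. Most points lie further from 0 on the vertical than on the horizontal axis, with a median of 1.32 in TAL292 and 0.69 in TAL294 for higher genes, and Myh4 is the gene furthest down in both rats.

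Immediate early genes rose together. Of 29 tested, 17 were called higher and none lower, with changes of 1.26 to 6.22 (log2) and a list median of 1.58, and the own-leg median was 1.91 in TAL292 and 1.27 in TAL294. Summed over the list, 4430 CPM in TAL292 and 4140 CPM in TAL294 stood above the 774 to 1350 CPM of the contralateral legs.

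Nr4a3, an orphan nuclear receptor induced by exercise (deposited at chromosome 5, 62361645 to 62401485), had 789 CPM in TAL292 and 711 CPM in TAL294, against 1.42, 12.7 and 64.9 CPM as the lowest, median and highest contralateral values. The groups did not overlap, and the change was 6.22 ± 0.92 (log2, SE; adjusted p = 0.000312), a 74.4-fold fitted rise. Atf3, a stress-induced factor that binds cyclic AMP and AP-1 type sites, had 805 CPM in TAL292 and 636 CPM in TAL294, against 4.49, 9.3 and 35.7 CPM in the contralateral legs. It rose by 5.93 ± 0.47 (adjusted p = 5.32e-07), also without overlap. Csrnp1, a nuclear protein of the immediate early class, had 71.6 and 66.6 CPM in TAL292 and TAL294, against 2.17, 3.6 and 5.34 CPM, and rose by 4.11 ± 0.25 (adjusted p = 2.54e-08). Its 8 contralateral legs spread much less than those of Nr4a3, and it had the smaller p on a smaller rise.

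Maff, a small Maf factor, rose by 3.88 ± 0.25 and Dusp2, a phosphatase that switches off MAP kinases in the nucleus, by 4.60 ± 0.30 (adjusted p = 4.5e-08 for both). Dusp2 was a low gene, with 27.5 and 14.8 CPM in the daily legs against 0.205, 0.309 and 0.806 CPM in the contralateral legs. Fos, a subunit of AP-1, had 183 CPM in TAL292 and 121 CPM in TAL294, against 7.6, 16.3 and 49.4 CPM, and rose by 2.95 ± 0.49 (adjusted p = 0.000889). Egr1, a zinc finger factor, had 90 and 61.8 CPM in the daily legs, against 0.821, 4.77 and 23.5 CPM, and rose by 3.72 ± 0.66 (adjusted p = 0.00171). Neither Fos nor Egr1 overlapped the contralateral range. Their calls were lost without TAL292, where the change was 2.65 for Fos and 3.45 for Egr1. Both calls held in the paired fit (adjusted p = 0.000985 for each). Egr2, of the same family as Egr1, rose by 1.97 ± 0.32, to 3.19 and 2.88 CPM in the daily legs against 0.153 to 0.821 CPM in the contralateral legs.

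Genes of the load and stretch response rose as well, in TAL292 more than in TAL294. Of 17 tested, 10 were called higher and none lower, with a list median of 1.78 and own-leg medians of 2.25 in TAL292 and 0.98 in TAL294. Csrp3, the muscle LIM protein of the Z-disc, had 2730 CPM in TAL292 and 668 CPM in TAL294, against 53.6, 120 and 240 CPM in the contralateral legs. Both legs were above all 8, with a 4-fold gap between themselves, and the change was 3.62 ± 0.58 (adjusted p = 0.000625). The Csrp3 call was lost without TAL292, where the change was 2.6, and held in the paired fit (adjusted p = 0.0186). Mustn1, a small nuclear protein of muscle and bone, had 1810 and 1180 CPM in TAL292 and TAL294, against 59.5, 113 and 222 CPM, and rose by 3.67 ± 0.45 (adjusted p = 4.88e-05). Tnfrsf12a, the receptor of the cytokine TWEAK, had 212 and 115 CPM in the daily legs, against 6.16, 15.3 and 21.5 CPM, and rose by 3.45 ± 0.39. Flnc, the muscle filamin that crosslinks actin at Z-discs, had 6010 and 3370 CPM in the daily legs, against 841, 1250 and 1580 CPM, and rose by 1.93 ± 0.23.

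Ankrd1, a titin-binding ankyrin repeat protein, had 279 CPM in TAL292 and 151 CPM in TAL294, against 19.8, 39.1 and 78.6 CPM. It rose by 2.41 ± 0.53 (adjusted p = 0.00839). This call was lost without TAL292, where the change was 1.96, and held in the paired fit (adjusted p = 0.00255). Rcan1, a feedback inhibitor of the calcium-activated phosphatase calcineurin, had 1080 and 583 CPM in TAL292 and TAL294, against 59.3, 98.8 and 144 CPM, and rose by 3.06 ± 0.32 (adjusted p = 8.5e-06). Nfatc1, a transcription factor that calcineurin activates, had 80.7 and 80 CPM in the daily legs, against 25.7, 46.6 and 54.5 CPM. Its change was 0.89 ± 0.21 (adjusted p = 0.0137), with adjusted p = 0.205 in the paired fit, 0.204 without TAL292 and 0.0977 without TAL294.

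Chaperones rose too. Of 22 heat shock and chaperone genes tested, 14 were called higher and none lower, with changes of 0.85 to 4.0, a list median of 0.97 and own-leg medians of 1.22 in TAL292 and 0.46 in TAL294. Hspa1b, an inducible Hsp70, had 988 CPM in TAL292 and 544 CPM in TAL294, against 37.1, 61.7 and 95.6 CPM in the contralateral legs, and rose by 3.58 ± 0.32 (adjusted p = 1.79e-06). Hspa1a, its near-identical neighbour, had 84.1 and 36.9 CPM in TAL292 and TAL294, against 0.702, 3.71 and 6.71 CPM, and rose by 4.0 ± 0.51. How reads were shared out between Hspa1a, Hspa1b and LOC108348108, a model that lies inside Hspa1a, is not known, so their separate levels are uncertain. Hspb1, the small heat shock protein Hsp27, had 911 and 442 CPM in the daily legs, against 139, 191 and 216 CPM, and rose by 1.82 ± 0.24 (adjusted p = 0.000105). Again both legs were above all contralateral legs and TAL292 was the higher of the pair.

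**Figure D2:**
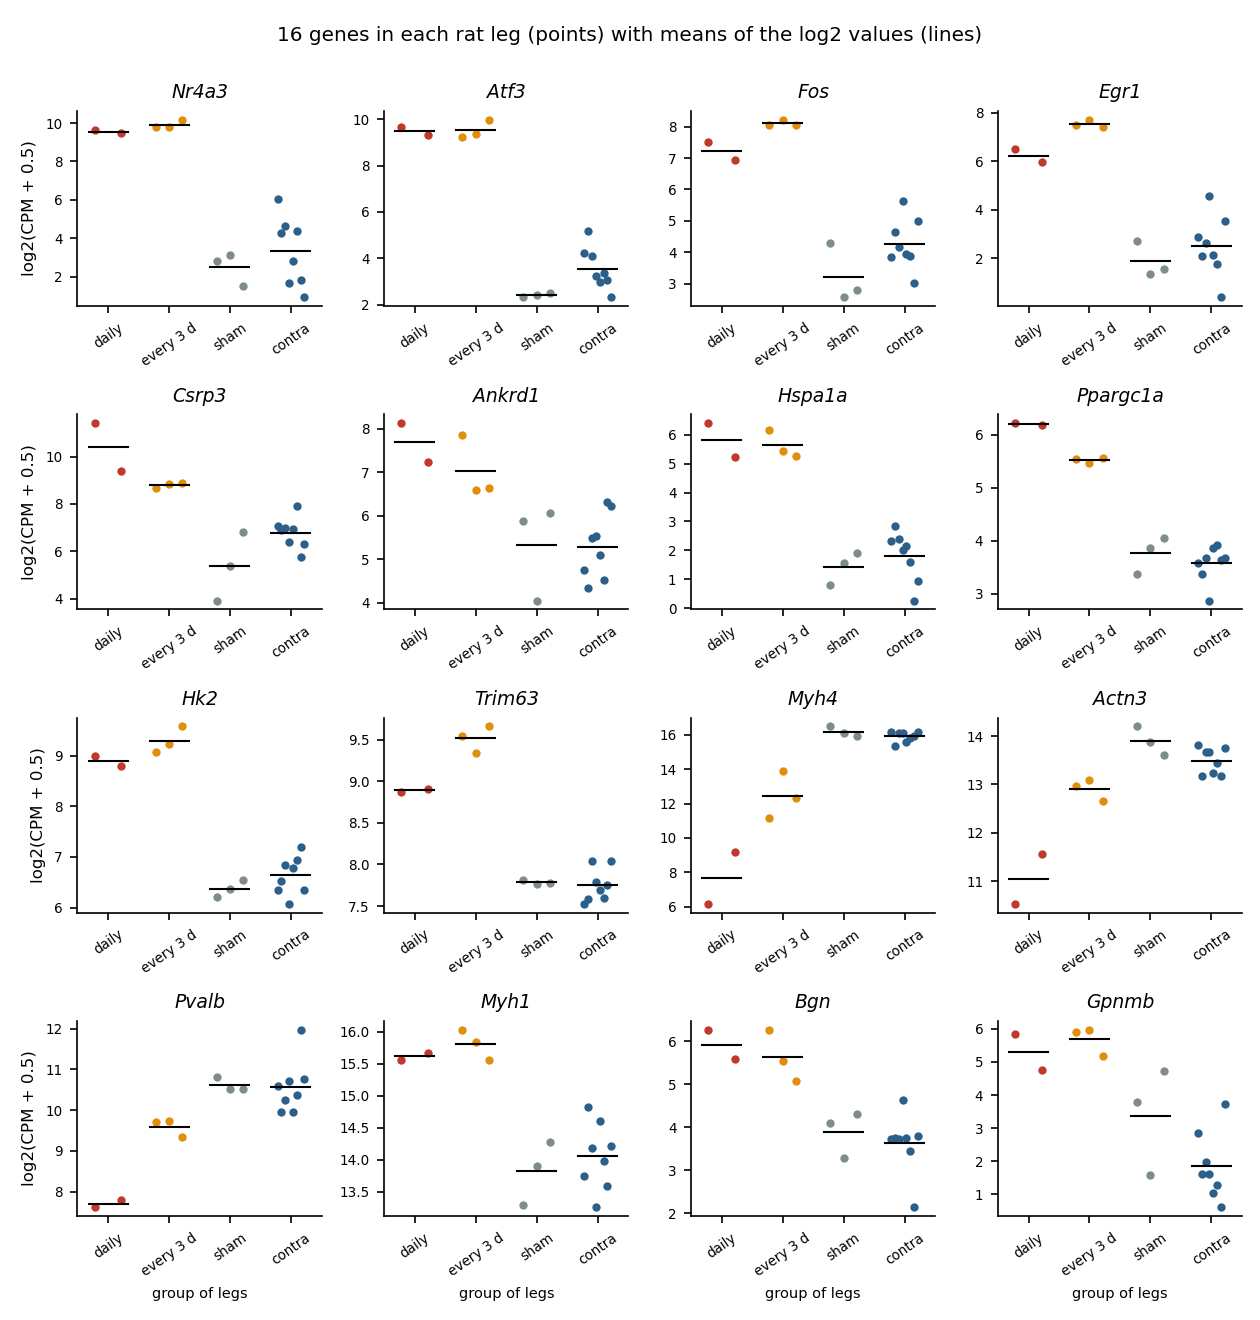
Level of 16 genes in every rat leg on the log2(CPM + 0.5) scale, with 1 point for each leg, groups from left to right trained daily (n = 2), trained every 3 days (n = 3), sham (n = 3) and contralateral (n = 8), and lines at the mean of the log2 values. Nr4a3 and Atf3 stand at 636 to 805 CPM in the daily legs, Csrp3 and Gpnmb differ between the daily legs, and Myh4, Actn3 and Pvalb lie below every contralateral leg.

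Several fast fibre genes fell, Myh4 by far the most. Of 22 fast glycolytic fibre genes tested, 9 were called lower and 1, Myh1, higher, with a list median of -0.34. Myh4 (chromosome 10, 51923359 to 51946298) had 71.4 CPM in TAL292 and 589 CPM in TAL294, against 42600, 66900 and 73700 CPM as the lowest, median and highest contralateral values. It fell by 8.22 on the log2 scale (SE 0.59, adjusted p = 1.25e-07), and by 9.99 and 6.18 against the right legs of the same rats, for TAL292 and TAL294 in that order. Myh1, on the same chromosome (51885913 to 51909700), had 48500 and 52400 CPM in the daily legs, against 9810, 17300 and 29100 CPM. It rose by 1.57 ± 0.33 (adjusted p = 0.006, and 0.0361 in the paired fit). This call was lost without either daily leg, with changes of 1.62 without TAL292 and 1.51 without TAL294.

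The 4 adult chains can be compared per kilobase of the deposited transcript models. Of their sum, Myh4 made up 0.129 percent in TAL292 and 1.01 percent in TAL294, against 53.0 to 83.5 percent in the contralateral legs, and Myh1 made up 87.4 and 89.2 percent in the daily legs, against 11.5 to 36.0 percent. Transcripts of Myh1 thus dominated the daily legs. They also dominated the legs trained every 3 days, with 74.3 to 93.3 percent Myh1 and 3.17 to 19.1 percent Myh4. In TAL292 and TAL294 Myh2 made up 10.9 and 8.26 percent, against 3.39 to 11.4 percent in the contralateral legs. Myh7 made up 1.55 and 1.49 percent, against 0.605 to 2.69 percent. Myh2 had 6080 and 4850 CPM in the daily legs, against 3290, 4910 and 9650 CPM, and a change of 0.02 ± 0.65 (adjusted p = 0.994). Myh7 had 846 and 857 CPM, against 575, 1090 and 2140 CPM, and a change of -0.30 ± 0.91 (adjusted p = 0.883). For both, the daily legs lay within the contralateral range, and the errors were wide. The shares in the sham legs were lower than in both daily legs, at 0.51 to 7.69 percent for Myh2 and 0.0435 to 1.21 percent for Myh7. The chains are similar in sequence, so the counting may have shared reads among them.

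**Figure D3:**
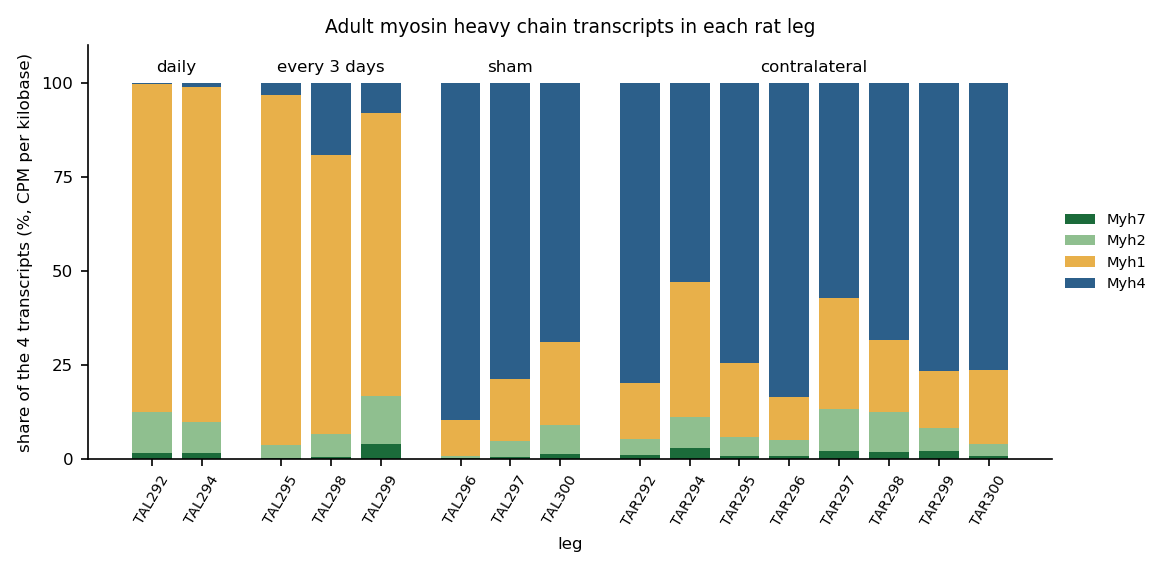
Share of Myh4, Myh1, Myh2 and Myh7 in their sum, from CPM per kilobase, in each of the 16 rat legs as stacked bars, ordered trained daily, trained every 3 days, sham and contralateral. The daily legs hold 87.4 and 89.2 percent Myh1 with Myh4 at most 1.01 percent, while Myh4 makes up 53.0 to 83.5 percent in the contralateral legs. Legs trained every 3 days hold 74.3 to 93.3 percent Myh1 and 3.17 to 19.1 percent Myh4.

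Partners of the fast fibre fell with Myh4. Actn3, the Z-disc alpha-actinin of fast fibres, had 1480 CPM in TAL292 and 3040 CPM in TAL294, against 9200, 12100 and 14500 CPM, and fell by 2.44 (SE 0.25, adjusted p = 6.38e-06). Its counterpart Actn2, the alpha-actinin of all fibre types, had 3910 and 3300 CPM, against 1170, 1650 and 2260 CPM, and rose by 1.12 ± 0.24 (adjusted p = 0.00654, with 0.196 without TAL292 and 0.0793 in the paired fit). Pvalb, parvalbumin, the calcium buffer of the fastest fibres, had 196 and 222 CPM in TAL292 and TAL294, against 997, 1440 and 4020 CPM, and fell by 2.86 (SE 0.34, adjusted p = 3.7e-05). Mylk2, the kinase of the regulatory myosin light chain in skeletal muscle, had 385 and 351 CPM, against 1040, 1250 and 1620 CPM, and fell by 1.80 (SE 0.18, adjusted p = 4.42e-06). In these 4 genes the daily and contralateral legs did not overlap, as in most genes called.

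Among genes of calcium handling the calls were mixed. Casq1, the calcium-binding protein of the sarcoplasmic reticulum in fast fibres, had 1600 and 1640 CPM in the daily legs, against 2370, 3000 and 4600 CPM, and fell by 0.91 (SE 0.19, adjusted p = 0.00511, with 0.127 without TAL292 and 0.163 in the paired fit). Among 18 tested genes of calcium handling and calcineurin signalling, 3 were called lower and 2, Rcan1 and Nfatc1, higher. Ckm fell by 0.54 and Tpm1, the fast alpha-tropomyosin, by 0.91, and both calls were lost in the paired fit, without either daily leg and when only these groups were fitted.

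Slow fibre genes as a list did not follow against the contralateral legs. Of 19 slow and oxidative fibre genes tested, Mb and Actn2 were called higher and none lower, with a list median of -0.09. The daily legs went opposite ways here, with an own-leg median of 0.33 in TAL292 and -0.84 in TAL294. TAR294, the right leg of the same rat as TAL294, had 36.0 percent Myh1, 8.34 percent Myh2 and 2.69 percent Myh7, and the part of these levels in that value was not tested. Mb, the oxygen store myoglobin, had 19000 CPM in TAL292 and 14200 CPM in TAL294, against 6690, 8190 and 12000 CPM, and rose by 0.93 ± 0.22 (adjusted p = 0.0139, with 0.337 without TAL292 and 0.0993 in the paired fit).

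Some regulators of fuel use rose. Of 21 PGC-1 and metabolic regulators tested, 7 were called higher and none lower, with a list median of 0.44. Ppargc1a (chromosome 14, 59421606 to 59512657) had 74.2 CPM in TAL292 and 72.7 CPM in TAL294, against 6.8, 12.1 and 14.7 CPM, and rose by 2.64 ± 0.22 (adjusted p = 6.12e-07). The legs were nearly equal, and so were the own-leg changes, 2.63 in TAL292 and 2.83 in TAL294. Hk2, the hexokinase that traps glucose in working muscle, had 508 and 445 CPM in the daily legs, against 66.9, 101 and 147 CPM, and rose by 2.26 ± 0.22 (adjusted p = 4.27e-06). Irs2, an adaptor of the insulin receptor, had 446 and 444 CPM, against 20.4, 25.7 and 57.1 CPM, and rose by 3.90 ± 0.29 (adjusted p = 1.57e-07). Pdk4, the kinase that spares glucose by blocking pyruvate oxidation, had 384 and 520 CPM, against 32.4, 124 and 366 CPM, and its change of 1.81 ± 0.60 did not pass (adjusted p = 0.0698).

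Of 33 tested genes of oxidative phosphorylation, 4 were called higher, with changes of 0.44 to 0.80, and none lower. The list median was 0.42, with own-leg medians of 0.55 in TAL292 and 0.22 in TAL294, against 0.12 and -0.05 over all genes. In TAL292 33 of the 33 genes and in TAL294 32 were above their own right leg, while 36.7 percent of all 10356 genes were higher in both rats. Each count comes from the legs of a single rat and its genes are not independent. Cycs, cytochrome c, had 1920 and 2190 CPM in the daily legs, against 891, 1230 and 1510 CPM, and rose by 0.80 ± 0.22 (adjusted p = 0.0355). Cox4i1 of complex IV rose by 0.44 ± 0.12 and Ndufa1 of complex I by 0.56 ± 0.16, and all 3 calls were lost without either daily leg and in the paired fit (adjusted p = 0.21 for Cycs, 0.162 for Cox4i1 and 0.0931 for Ndufa1). None of 25 tested genes of the tricarboxylic acid cycle and fatty acid oxidation was called, with a median of 0.27, although 25 in TAL292 and 20 in TAL294 were above their own right leg.

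Genes of muscle wasting and growth gave few calls. Trim63, the ubiquitin ligase MuRF1, had 469 CPM in TAL292 and 481 CPM in TAL294, against 184, 211 and 263 CPM, and rose by 1.14 ± 0.14 (adjusted p = 3.58e-05). Fbxo32, the ligase atrogin-1 that is often named beside it, had 32.2 and 46.9 CPM, within the contralateral 25 to 68.4 CPM, with a change of -0.11 ± 0.27 (adjusted p = 0.855). Of 19 atrophy and autophagy genes tested, Trim63 and Gabarapl1, which helps form autophagosomes, were called higher. Gabarapl1 had 197 and 106 CPM in the daily legs, against 45.4, 66.4 and 75.9 CPM, and rose by 1.13 ± 0.22 (adjusted p = 0.00334, and 0.0359 in the paired fit). This call was lost without TAL292, where the change was 0.68. Mstn, myostatin, the inhibitor of muscle growth, had 5.79 and 2.02 CPM, against 3.01, 7.93 and 12.7 CPM, and its change of -0.88 ± 0.45 did not pass (adjusted p = 0.249). Acvr1b, a type I receptor of the activin and myostatin pathway, had 11.1 and 18 CPM, against 21.1, 26.7 and 33.2 CPM, and fell by 0.91 (SE 0.19, adjusted p = 0.0055, with 0.331 without TAL292 and 0.0916 in the paired fit).

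Markers of denervation showed no joint change. Of 15 tested, Lrp4, the agrin receptor of the neuromuscular junction, was called higher by 0.84 ± 0.20 and Ache, acetylcholinesterase, lower by 0.68 (SE 0.20), and the list median was 0.06. Both lost their call without TAL292, where the change was 0.65 for Lrp4 and -0.41 for Ache. Both kept it in the paired fit (adjusted p = 0.0409 for Lrp4 and 0.0422 for Ache), while Ache lost it in 8 of 18 alternatives. Chrna1, the receptor subunit that denervated fibres raise, had 5.96 CPM in TAL292 and 4.35 CPM in TAL294, against 3.49, 4.86 and 18.9 CPM, with a change of -0.11 ± 0.44 (adjusted p = 0.918). Myog, myogenin, had 25.8 and 18 CPM, against 12.5, 19.7 and 26.4 CPM, with a change of 0.19 ± 0.31 (adjusted p = 0.765). Both genes lay within the contralateral range in both daily legs. Prima1, which anchors acetylcholinesterase in membranes, had 3.71 and 2.53 CPM, against 11.5, 22.7 and 39.8 CPM, and fell by 2.58 (SE 0.41, adjusted p = 0.000564).

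Matrix and fibroblast genes were higher. Of 28 extracellular matrix genes tested, 9 were called higher and none lower, with a list median of 1.15 and own-leg medians of 1.35 in TAL292 and 0.68 in TAL294. Bgn, the small proteoglycan biglycan, had 76.2 CPM in TAL292 and 47.4 CPM in TAL294, against 3.9, 12.8 and 24.4 CPM, and rose by 2.30 ± 0.43 (adjusted p = 0.00252). Col4a1, a chain of basement membrane collagen, had 352 and 244 CPM, against 95.3, 119 and 157 CPM, and rose by 1.28 ± 0.19 (adjusted p = 0.000278). Thbs1, thrombospondin 1, had 20.6 and 10.9 CPM, against 2.85, 3.71 and 5.13 CPM, and rose by 1.87 ± 0.29 (adjusted p = 0.000564). Without TAL292 these 3 calls were lost, with changes of 1.96 for Bgn, 1.02 for Col4a1 and 1.42 for Thbs1. All 3 held in the paired fit (adjusted p = 0.0024 for Bgn, 0.0289 for Col4a1 and 0.0142 for Thbs1).

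The fibrillar collagens had wider spread. Col3a1 had 832 and 732 CPM in the daily legs, against 156, 259 and 364 CPM, and rose by 1.64 ± 0.40 (adjusted p = 0.015, with 0.248 without TAL292, 0.0847 without TAL294 and 0.108 in the paired fit). Col1a1 had 331 and 276 CPM, against 58.9, 117 and 187 CPM, and its change of 1.42 ± 0.46 did not pass (adjusted p = 0.0659) although the groups did not overlap. Some fibroblast markers were higher as well: 4 of 12, Dpt, Gsn, Pcolce and S100a4, were called higher. The summed level of the list was 1230 CPM in TAL292 and 1110 CPM in TAL294, against 250 to 570 CPM in the contralateral legs. Pdgfra had 16.1 and 15.5 CPM, against 5.09 to 12.2 CPM, and was not called. Among the called fibroblast genes, Dpt, Pcolce and S100a4 lost the call without TAL292 (adjusted p = 0.271, 0.274 and 0.575), Dpt and Pcolce also in the paired fit (0.08 and 0.0723) and without TAL294 (0.119 and 0.116), and the list median of 1.06 was 0.67 in the paired fit. None of 11 tendon markers was called, with a summed 111 and 62.6 CPM in the daily legs against 60.8 to 124 CPM. The part of fibroblast number in the matrix result was not tested.

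Macrophage markers were present at low levels. Of 18 tested, 2 were called higher, the list median was 0.97, and the summed level was 173 CPM in TAL292 and 117 CPM in TAL294, against 35.7 to 90.1 CPM. Gpnmb, a lysosomal glycoprotein of phagocytes, had 56.7 and 26.3 CPM in TAL292 and TAL294, against 1.03, 2.57 and 12.7 CPM, and rose by 3.45 ± 0.70 (adjusted p = 0.00481). Lgals3, galectin 3, had 22.6 and 9.87 CPM, against 3.36, 3.78 and 7.44 CPM, and rose by 1.71 ± 0.36 (adjusted p = 0.00548). Both calls were lost without TAL292, where the change was 2.9 for Gpnmb and 1.13 for Lgals3. Both held in the paired fit (adjusted p = 0.000985 for Gpnmb and 0.0164 for Lgals3). Cd68, a defining marker, had 2.94 and 2.13 CPM, against 0.205, 0.773 and 1.48 CPM, and its change of 1.25 ± 0.45 did not pass (adjusted p = 0.0969).

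Of the other marker lists, satellite cells had 2 of 11 genes called higher, Sdc4 and Megf10, the second with adjusted p = 0.151 without TAL292. Sdc4, a syndecan that quiescent satellite cells and other cells carry, had 138 CPM in TAL292 and 101 CPM in TAL294, against 15.2, 26.8 and 39.6 CPM, and rose by 2.18 ± 0.26 (adjusted p = 3.33e-05), whereas Pax7, the defining marker, had 1.3 and 0.81 CPM, within the contralateral 0.544 to 1.42 CPM. Among 16 endothelial genes only Angpt2, a vessel-destabilising ligand, was called, lower by 0.65 (SE 0.18), and it lost its call without either daily leg and in the paired fit (adjusted p = 0.106). Lmod1, the leiomodin known from smooth muscle, had 6.65 and 13.8 CPM, against 47.6, 56.1 and 90.7 CPM, and fell by 2.62 (SE 0.31, adjusted p = 3.01e-05). In the same list of 14, Smtn and Cspg4 were called higher, and lost the call without TAL292, with changes of 0.38 and 0.57. In the paired fit Cspg4 held (adjusted p = 0.0361) and Smtn did not (0.234). Of the cell cycle genes, 12 tested, Bub1 was called higher and Tpx2 lower, and Bub1 lost its call without either daily leg and in the paired fit (adjusted p = 0.225). Tpx2, a spindle assembly factor, had 5.01 and 3.19 CPM, against 9.67, 30.5 and 51.4 CPM, and fell by 2.65 (SE 0.54, adjusted p = 0.00474, and 0.0172 in the paired fit). The Tpx2 call was lost without either daily leg, with changes of -2.94 without TAL292 and -2.36 without TAL294. None of 40 cytoplasmic ribosomal protein genes, 26 ribosome biogenesis genes, 9 adipocyte, 7 erythroid, 2 neutrophil or 2 lymphocyte markers was called.

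In the ATF4 and amino acid response, 2 of 13 genes were called higher, Ddit3 and Gdf15. Ddit3, the stress factor CHOP, had 82.3 CPM in TAL292 and 60.5 CPM in TAL294, against 11.5, 18.5 and 23 CPM in the contralateral legs, and rose by 1.96 ± 0.24 (adjusted p = 4.88e-05). In polyamine metabolism, 10 genes tested, Sat1, which acetylates polyamines, had 35.1 and 23.9 CPM in the daily legs, against 7.73, 8.82 and 15.8 CPM, and rose by 1.49 ± 0.26, whereas Smox, spermine oxidase, had 4.92 and 4.45 CPM, against 7.63, 9.24 and 13.8 CPM, and fell by 1.01 (SE 0.22). Neither call held without TAL292, where the change was 1.22 for Sat1 and -1.07 for Smox. In the paired fit Sat1 held (adjusted p = 0.00123) and Smox did not (0.0647). Of 13 cytoskeletal and tubulin genes, 4 were called higher, with Tuba1c, an alpha-tubulin, at 17 and 13.2 CPM in the daily legs, against 4.14, 5.38 and 7.58 CPM (1.38 ± 0.24). The Tuba1c call was lost without TAL292, where the change was 1.2, and held in the paired fit (adjusted p = 0.0232). Among 14 genes of developing fibres only the myogenic factor Myf6 was called, at 239 and 161 CPM in the daily legs, against 88.7, 129 and 142 CPM (0.70 ± 0.18, adjusted p = 0.501 without TAL292). Of 8 chemokines and cytokines only Ccl2, a monocyte attractant, was called, at 5.61 and 2.63 CPM, against 0 to 1.86 CPM (1.93 ± 0.53, adjusted p = 0.448 without TAL292).

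**Figure D4:**
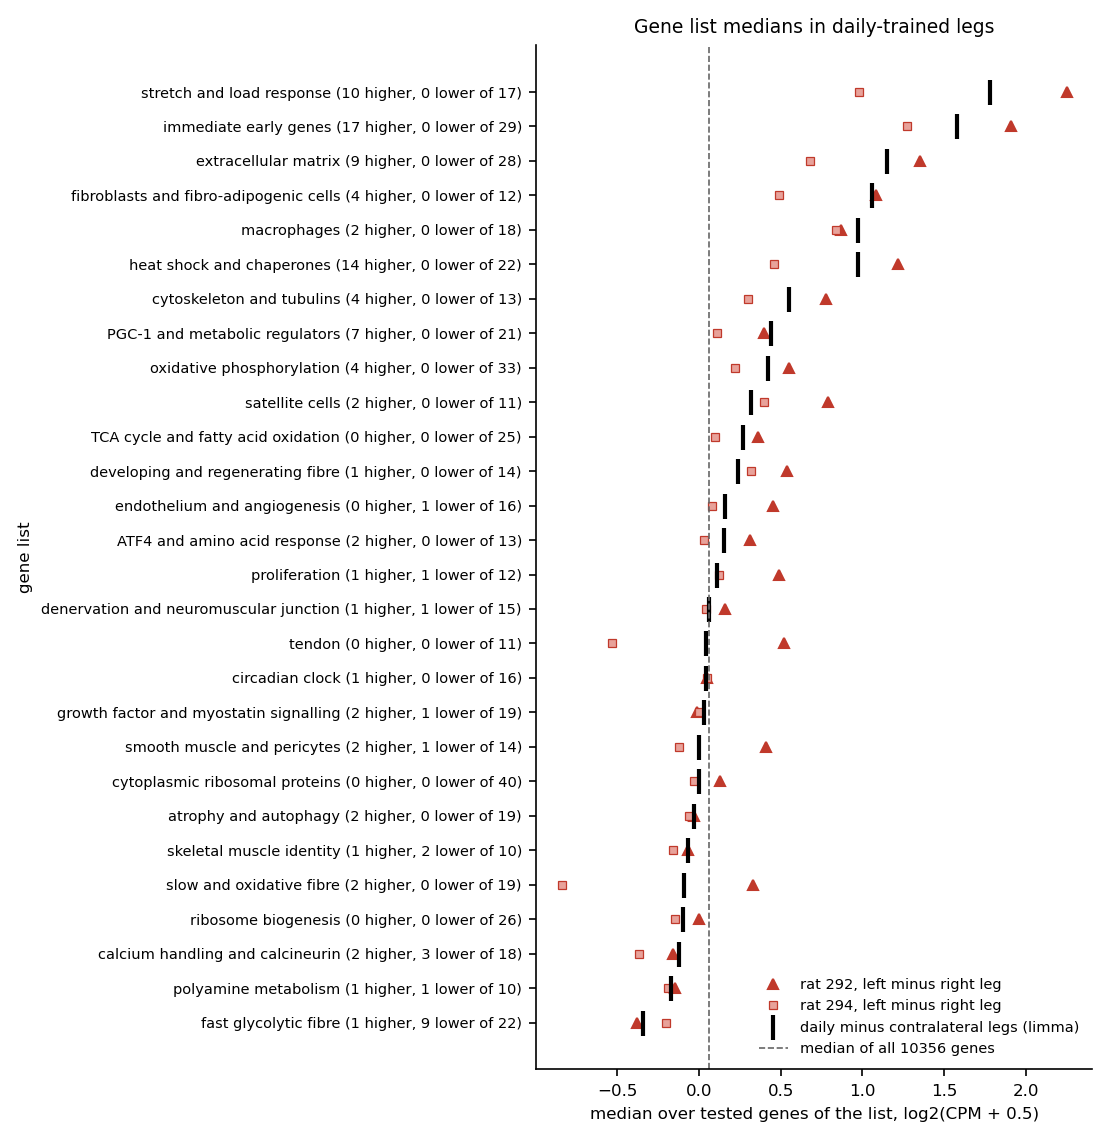
Median change of the 28 gene lists with 10 or more tested genes, with black bars for daily minus contralateral legs, triangles for TAL292 and squares for TAL294 (left minus right leg), and a dashed line at the median of all genes, 0.06. Stretch and load genes (1.78) and immediate early genes (1.58) lie furthest to the right and fast fibre genes (-0.34) furthest to the left, and TAL292 exceeds TAL294 in most lists that lie to the right.

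Among the largest changes outside these groups, Adgrb2, an adhesion receptor, fell to 0.518 CPM in TAL292 and 0.506 CPM in TAL294, against 10.9, 27 and 49.1 CPM in the contralateral legs, a change of -4.80 ± 0.43 (adjusted p = 1.79e-06). Atp1b2, a beta subunit of the sodium pump, had 81.3 and 56.8 CPM, against 200, 393 and 723 CPM, and fell by 2.47 (SE 0.33, adjusted p = 0.000117). Prkag3, the gamma subunit of AMP-activated protein kinase found in glycolytic muscle, had 24 and 18.2 CPM, against 65, 112 and 157 CPM, and fell by 2.28 (SE 0.29, adjusted p = 7.99e-05). Mettl21c, a muscle protein methyltransferase, had 0.345 and 0.86 CPM, against 1.86, 6.42 and 14.1 CPM, and fell by 2.55 (SE 0.48). The Mettl21c call was lost without TAL292, where the change was -2.2, and held in the paired fit (adjusted p = 0.008). E2f8, a repressor of cell cycle genes, rose by 3.70 ± 0.31 to 12.9 and 4.76 CPM, against 0 to 0.459 CPM. LOC108348108, a symbol to which the files give no name, had 747 and 289 CPM, against 15.1, 17.7 and 44 CPM, and rose by 4.37 ± 0.41. Its deposited position (chromosome 20, 3870765 to 3873222) lies wholly inside that of Hspa1a (3868790 to 3874712) on the same strand, so its level and that of Hspa1a cannot be taken as separate genes. Ciart, a repressor of the circadian clock, rose by 3.49 ± 0.67 to 19.1 and 27.9 CPM, against 0.248 to 5.86 CPM, as the only one of 16 clock genes called. Its call was lost without either daily leg, with changes of 3.75 without TAL292 and 3.22 without TAL294. The Ciart call held in the paired fit (adjusted p = 0.000331).

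Sham-operated left legs carry surgery and side without training. Whether they held a device and when they were sampled is not given, so both stay mixed with training in this comparison. Against sham legs too, immediate early, load and chaperone genes were higher and fast fibre genes lower in daily legs. Of 10356 genes, 843 (8.14 percent) were called, 573 (5.53 percent) higher and 270 (2.61 percent) lower in daily legs, so 68.0 percent were higher. With median-of-ratios scaling 55.2 percent of the calls were higher. The daily legs are shared with the comparison above, so the values are given side by side and not as separate support. Immediate early, load and chaperone lists had 17 of 29, 10 of 17 and 14 of 22 genes called higher, and the fast fibre list had 9 of 22 called lower. The slow and oxidative fibre list had 2 of 19 called higher, with a median of 1.21 against sham legs and -0.09 against contralateral legs. For sham against contralateral legs the median of this list was -1.28.

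Nr4a3 had 789 and 711 CPM in the daily legs, against 6.68, 8.25 and 2.36 CPM in sham legs TAL296, TAL297 and TAL300, a change of 7.05 ± 1.06 (adjusted p = 0.000375). Csrp3 had 14.6, 41 and 111 CPM in the sham legs and was higher in daily legs by 5.04 ± 0.66 (adjusted p = 0.000121). Myh4 had 92100, 72000 and 62100 CPM in the sham legs and was lower in daily legs by 8.50 (SE 0.68, adjusted p = 5.23e-07). In these 3 genes the daily and sham legs did not overlap. They are among the largest changes of this same comparison, so this is largely set by the choice. Its share over all genes was not counted. Prkag3, with 202, 185 and 122 CPM in the sham legs, was lower in daily legs by 2.96 (SE 0.34, adjusted p = 2.92e-05). Macrophage genes did not pass here: Gpnmb had 13.3, 2.47 and 25.9 CPM in the sham legs, the last close to the 26.3 CPM of TAL294, with a change of 1.93 (adjusted p = 0.159). Sham legs against contralateral legs gave 0 calls with limma, with 282 genes at an unadjusted p under 0.05. Without TAL292 188 genes were called against sham, without TAL294 510, without sham leg TAL296 420 and without TAL297 426, and 143 in the paired fit.

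Against legs trained every 3 days, the daily legs had lower levels of a few genes, among them the fast fibre genes Myh4 and Actn3. With limma, 9 genes (0.0869 percent of 10356) were called between the schedules, all lower in daily legs, with 609 genes at an unadjusted p under 0.05. Myh4 had 71.4 and 589 CPM in the daily legs, against 2270, 15100 and 5160 CPM in every-3-days legs TAL295, TAL298 and TAL299, and was lower by 4.77 (SE 0.68, adjusted p = 0.00586). Actn3 had 1480 and 3040 CPM in daily legs, against 8060, 8770 and 6500 CPM, and was lower by 1.86 (SE 0.29, adjusted p = 0.0121). Neither call held without TAL292 (adjusted p = 0.182 for Myh4 and 0.311 for Actn3), in the paired fit (0.618 and 0.713) or when only these 2 groups were fitted, and Actn3 was also lost without TAL295 or without TAL298. Gdf15, a stress-induced secreted protein, had 1.3 and 0.911 CPM in the daily legs, against 11.8, 9.11 and 9.05 CPM, and was lower by 2.71 (SE 0.35, adjusted p = 0.00321). Ctdp1, a phosphatase of RNA polymerase II, had 29.8 and 31.4 CPM, against 64.9, 71.1 and 66.2 CPM, and was lower by 1.13 (SE 0.15, adjusted p = 0.00321).

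Gdf15 and Ctdp1 were above the contralateral range under either schedule, and lower under the daily one: against contralateral legs Gdf15 was higher by 1.45 in daily and 4.16 in every-3-days legs, and Ctdp1 by 0.67 in daily and 1.80 in every-3-days legs. Both daily values were called, but not in the paired fit (adjusted p = 0.0822 for Gdf15 and 0.067 for Ctdp1) or without TAL292 (0.182 and 0.069), and the schedules share the contralateral legs. Rnf145, a ubiquitin ligase of the endoplasmic reticulum, had 9.84 and 8.8 CPM in the daily legs, against 22.1, 17.5 and 20 CPM, and its daily values were near the contralateral 8.81 to 12.7 CPM. The other called genes were Gpt2, a mitochondrial alanine aminotransferase (-1.03), Mdga1, a membrane-anchored adhesion protein (-1.43), Slc37a4, the glucose-6-phosphate transporter (-0.71), and Adgrb2 (-2.72). Of 13 alternatives, the call between schedules was lost in 10 for Adgrb2, 9 for Slc37a4, 8 for Mdga1, and 7 each for Gpt2 and Rnf145. For Actn3 it was lost in 5, for Myh4 in 3, and for Gdf15 and Ctdp1 in 2 each. In all 9 genes both daily legs lay below all 3 every-3-days legs. The genes were chosen by the test on these same legs, so this is largely set by the choice. Its share over all genes was not counted. Ppargc1a had 74.2 and 72.7 CPM in daily legs, against 46.4, 44 and 46.5 CPM, and its difference of 0.68 did not pass (adjusted p = 0.645). Of Nr4a3, Atf3, Fos and Egr1 none was called between the schedules, with differences of -0.36, -0.04, -0.88 and -1.31. Without TAL292 3 genes were called, and 4 each without TAL295, TAL298 or TAL299. The paired fit, which compares own-leg changes, called 0, with 483 genes at an unadjusted p under 0.05.

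**Figure D5:**
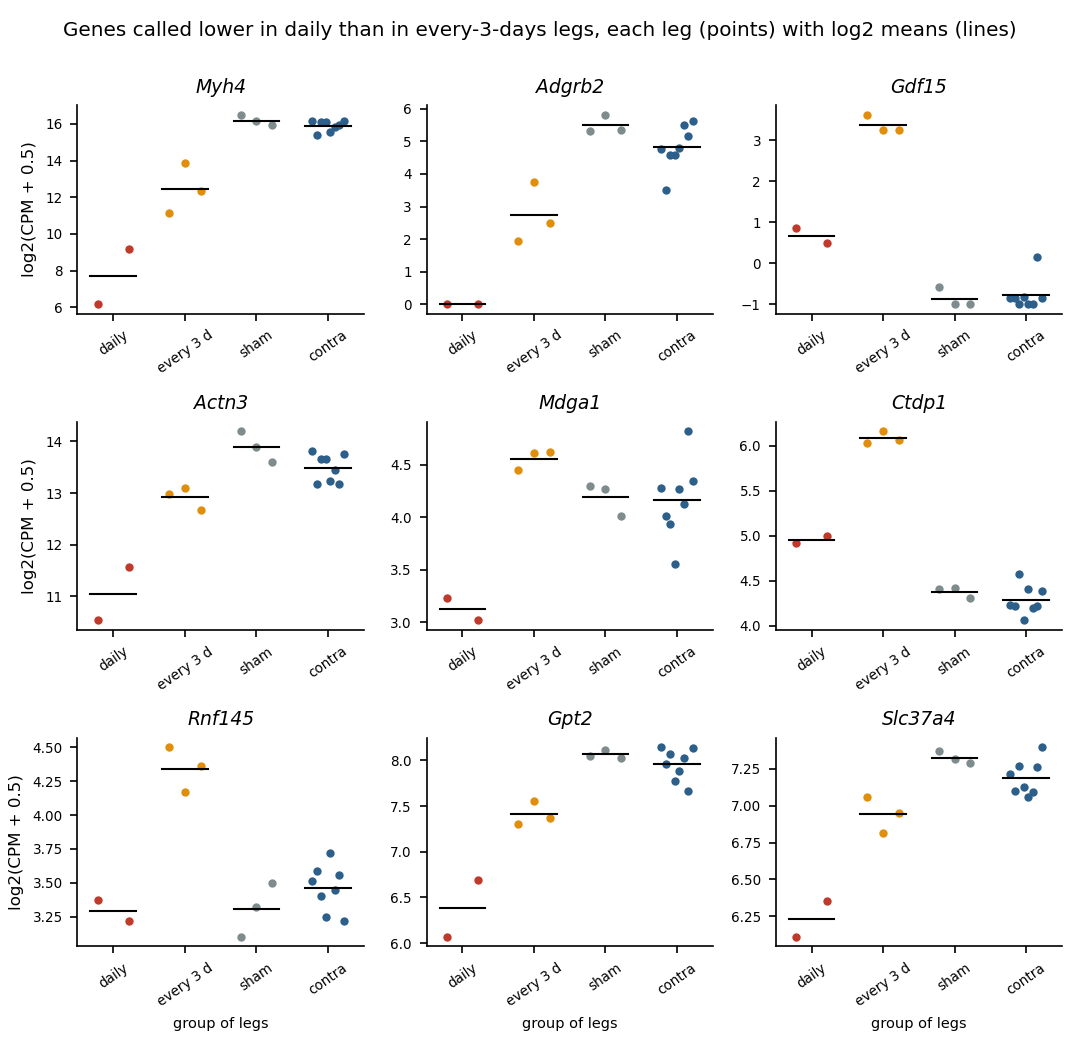
The 9 genes called lower in daily than in every-3-days legs, with each leg as a point on the log2(CPM + 0.5) scale, groups from left to right daily, every 3 days, sham and contralateral, and lines at the mean of the log2 values. Daily legs lie below all every-3-days legs in each panel, which the choice of genes by these same legs largely sets. Myh4 is at 71.4 and 589 CPM against 2270 to 15100 CPM, while Gdf15, Ctdp1 and Rnf145 are highest in the every-3-days legs.

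The daily legs also differed from each other. Among genes with at least 5 CPM in the higher leg, the 8 with the widest gap were Sspo, Cd1d1, Myh4, Ostn, Rdh16, Pde10a, Mybph and Tp53i3. Sspo, an extracellular glycoprotein, had 8.38 CPM in TAL292 and 0.405 CPM in TAL294, and Rdh16, a retinol dehydrogenase, had 7.85 and 0.658 CPM. Pde10a, a cyclic nucleotide phosphodiesterase, had 34.3 CPM in TAL292 and 4.45 CPM in TAL294, against 0 to 1.21 CPM in the contralateral legs, and rose by 3.60 ± 0.52 (adjusted p = 0.000278). Mybph, a myosin-binding protein of stressed fibres, had 303 CPM in TAL292 and 46.5 CPM in TAL294, on either side of most of the contralateral 84.5 to 334 CPM, and its own-leg changes were 1.02 in TAL292 and -1.96 in TAL294. Cd1d1, which presents lipid antigens, had 3.71 CPM in TAL292 and 37.9 CPM in TAL294, and the right legs of the same rats had 5.97 and 66.2 CPM. Tp53i3, a quinone oxidoreductase induced by p53, had 5.79 and 39.1 CPM, with 3.32 and 29.4 CPM in the right legs. For Cd1d1 and Tp53i3 the gap between the daily legs was thus also present between the untrained legs of the same rats.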

How the data were processed

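The authors deposited CPM for 13166 rat transcript models with 0.0001 added, which was subtracted; every column then summed to 1000000. Build rn7 and the tools Partek, DESeq2 and STAR 2.7.8a appear in the submitters' processing notes without their roles, and coordinates are given as deposited. Models were summed to 12411 symbols, 492 with several models. Of low values, 87.1 to 89.0 percent were whole reads (tolerance 0.05; 95 needed), so no count test was run. Genes with CPM of at least 1 in at least 2 libraries were fitted on log2(CPM + 0.5), which understates changes of low genes, with limma 3.58.1 (R 4.3.3; mean-variance trend, 2-sided, 4 rat groups sharing the spread, Benjamini-Hochberg over 10356 genes). Errors are standard errors. A script tested this on simulated data. Alternatives changed the pseudocount, filter, scaling, trend, groups fitted, summing, pairing and legs. Numbers pair legs of 1 rat (deviations correlated at 0.0415 to 0.256); the animal block gave paired values. Lists, members and rules were chosen with earlier results of these data known. Named were the 12 largest rises and falls beyond the contralateral range (5 CPM or more), the 3 smallest p of each list, 20 fixed genes, the 6 largest in either other comparison, and the 8 widest gaps between daily legs; Rnf145, Gpt2, Slc37a4, Acta1, Pax7 and Pdgfra were added later. Mouse legs were not used here, and 1 named gene is not reported here. Tools: python 3.11.15, numpy 2.4.6, pandas 2.3.3 and matplotlib 3.10.9.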

Additional observations from a re-analysis of the deposited data

Results flagged for a closer look

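In the contralateral legs, 1 leg stood apart from the other 7 by Dixon's test for 8 of the 94 named genes, where chance flags about 1 in 20 groups. The shallow library TAR299 accounted for 5 of them, with high values of Pvalb (4020 CPM), Tpm1 (30500 CPM) and Gdf15 (0.616 CPM) and low values of Gabarapl1 (45.4 CPM) and Nfatc1 (25.7 CPM). Chrna1 was high in TAR300 (18.9 CPM), Dusp2 in TAR294 (0.806 CPM) and Vim in TAR296 (124 CPM).

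Between schedules, the test of the difference itself passed for 9 genes, all lower in daily than in every-3-days legs. The differences (log2, limma) were -4.77 for Myh4, -2.72 for Adgrb2, -2.71 for Gdf15, -1.86 for Actn3, -1.43 for Mdga1, -1.13 for Ctdp1, -1.05 for Rnf145, -1.03 for Gpt2 and -0.71 for Slc37a4.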

How the results depend on the processing

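Limits: 2 legs define the daily group, and with 1 of them left out the remaining leg is assumed to vary like the other groups. Against contralateral legs the count of 851 calls ranged over 122 to 1326 when 1 leg was left out (lowest without TAL292, highest without TAR299) and was 284 with the animal as a replicate block (paired). Against sham legs the count of 843 ranged over 188 to 899 and was 143 paired. Against every-3-days legs the count of 9 ranged over 3 to 11, was 0 paired, 5 with no mean-variance trend and 21 when only these 2 groups were fitted. The cause was not tested. Other alternatives kept each count within 1.5 times, for example 655 to 963 against contralateral legs. Of the 81 named genes called against contralateral legs, 31 kept the call in all 18 alternatives, 48 lost it without TAL292, 20 without TAL294 and 28 when paired. Among genes that were not called, the direction turned for 8. Over left-out legs the change spanned -2.17 to 1.02 for Cd1d1, -0.31 to 0.13 for Chrna1, -0.37 to 0.16 for Fbxo32, -1.83 to 0.87 for Mybph, -0.14 to 0.18 for Myh2, -0.06 to 0.44 for Myog, -2.46 to 0.43 for Ostn and -0.70 to 1.96 for Tp53i3. The paired change was 0.23 for Chrna1 and 0.14 for Fbxo32, and Myh2 was at -0.04 with median-of-ratios scaling. Medians of immediate early (1.45 to 1.76), load (1.51 to 2.35), chaperone (0.79 to 1.24), matrix (0.99 to 1.33) and fast fibre (-0.40 to -0.27) lists kept their sign in every alternative. Low genes are limited by depth, most in TAR299.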

Other observations

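Genes outside the lists described above were looked at by family, with the families chosen after their values were seen, so their counts describe these legs and support nothing. Values are log2 changes in daily against contralateral legs. AMP-activated protein kinase, the energy sensor of the cell, changed in its subunits: of 7 tested, Prkag2 (49.3 and 15.3 CPM in TAL292 and TAL294, against 2.26 to 4.8 CPM) rose by 2.67 ± 0.32, Prkag3 fell by 2.28 as given above, and Prkaa1 rose by 0.90 ± 0.24, a call lost without TAL292 (adjusted p = 0.68) and in the paired fit (adjusted p = 0.158). The other 4 subunits were not called. In glycogen metabolism, 2 of 15 genes rose and 4 fell. The branching enzyme Gbe1 had 363 and 333 CPM in the daily legs, against 96.9 to 179 CPM, while the phosphorylase Pygm had 7500 and 7970 CPM, against 11000 to 13700 CPM. Gbe1 rose by 1.46 ± 0.24, a call lost without TAL292, where the change was 1.4, and kept in the paired fit (adjusted p = 0.0172). Pygm fell by 0.67 (SE 0.15), a call lost in the paired fit (adjusted p = 0.15). It was also lost without either daily leg, with changes of -0.62 without TAL292 and -0.71 without TAL294.

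In amino acid metabolism, 3 of 11 genes rose and 3 fell. The rises, in Got1, Got2 and Bckdk, were lost without TAL292 (adjusted p = 0.149, 0.174 and 0.389), without TAL294 (0.107, 0.154 and 0.138) and in the paired fit (0.0519, 0.146 and 0.268). Bcat2, which starts the breakdown of branched-chain amino acids in mitochondria, had 29 and 45.3 CPM in the daily legs, against 88.4 to 118 CPM, and Glul, glutamine synthetase, had 304 and 321 CPM, against 557 to 995 CPM. They fell by 1.46 (SE 0.16) and 1.39 (SE 0.19), calls that held in every alternative run. Of 14 focal adhesion genes tested, 5 rose and none fell, among them Vcl, vinculin (up by 1.22 ± 0.14) and Tln1, talin 1 (278 and 175 CPM, against 73.9 to 108 CPM). Of 10 genes of membrane excitation and the triad, 5 fell and none rose, with Jph2, which holds the transverse tubule to the sarcoplasmic reticulum, at 211 and 233 CPM in daily legs, against 315 to 682 CPM (-1.18 ± 0.20, adjusted p = 0.00108, and 0.0261 in the paired fit). The Jph2 call was lost without TAL292, where the change was -1.11. Lmod2, which lengthens thin filaments, had 906 and 695 CPM in daily legs, against 86.7 to 196 CPM, and Klhl40, a stabiliser of thin filament proteins, had 764 and 437 CPM, against 86.6 to 151 CPM, and both calls held in every alternative run.

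Cd1d1 fell into a low and a high set of rats in both legs of each animal: 3.03 to 7.85 CPM in TAL292, TAL296, TAL298, TAL299 and the right legs of the same rats, and 37.9 to 68 CPM in TAL294, TAL295, TAL297, TAL300 and the right legs of the same rats.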
